A study of Mus musculus with 6 samples.

Results

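The 10 genes described here encode BAP1, a nuclear ubiquitin hydrolase, and proteins that copurify with it in one chromatin complex: Bap1, Asxl1, Asxl2, Hcfc1, Ogt, Foxk1, Foxk2, Mbd5, Mbd6 and Hat1. They were taken by symbol from the deposited gene table of sorted granulocyte-macrophage progenitors (GMPs), the bone marrow cells that give rise to granulocytes and monocytes. All 10 were found among the 20738 genes with a read, and all 10 passed the expression filter that left 14391 genes for testing. The 6 libraries came from C57BL/6 mice aged 65 days whose Bap1 alleles were both flanked by loxP sites (Bap1 f/f). All mice had received polyI:polyC at 42 days per the sample labels, while the series' design text places it at 3 weeks of age. Control libraries (n = 3) came from mice without Cre, and libraries labelled Bap1 knockout (n = 3) from mice that also carried Mx1-Cre, a recombinase under an interferon-responsive promoter that polyI:polyC switches on in many cell types. No group carried Mx1-Cre without the loxP alleles, so Cre and the loss of Bap1 cannot be told apart. Nothing in the labels says that each library came from its own mouse, so p-values measure the spread between these libraries.

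BAP1 removes the single ubiquitin that Polycomb repressive complex 1 places on histone H2A. It does so as a pair with an ASXL protein, whose deubiquitinase adaptor domain activates it, and ASXL1 is a frequent target of mutation in myeloid neoplasms. The other proteins attach to this core: the forkhead factors FOXK1 and FOXK2 bind DNA, HCF1 (Hcfc1) links many transcription factors to chromatin enzymes, OGT adds the sugar O-GlcNAc to nuclear proteins and cleaves HCF1, MBD5 and MBD6 bind the ASXL proteins, and HAT1 acetylates new histone H4.

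Values are normalized counts, reads per gene divided by the authors' size factor for the library. Libraries held 19464353 to 25901725 gene reads, and the 10 genes had from 70 reads (Foxk1, in its lowest library) to 9350 reads (Hat1, in its highest). Replicates differed far beyond counting noise, with a chi-square per gene of 13.3 to 17.9 among the controls and of 42.4 to 51.2 among libraries labelled knockout. All 14 GMP marker genes were read in all 6 libraries. Of these, 5 rose and 4 fell in those labelled knockout at a limma adjusted p under 0.05. Over all genes tested, 11.8% were called higher and 15.0% lower. Cebpa, a myeloid master regulator, lay at 324.8 to 419.5 normalized counts over the 6 libraries, and the monocytic genes Irf8 and Csf1r fell from 5933 ± 266.0 to 1396 ± 897.6 and from 2270 ± 152.7 to 464.0 ± 244.7 (SD, n = 3; limma adjusted p = 0.000833 and 0.000199; both, like Cebpa, named after their values were seen). Mpo, the myeloperoxidase gene, was at 509900 ± 18680 normalized counts in control libraries and 635300 ± 122900 in the others (SD, n = 3; limma adjusted p = 0.251). Xist, the RNA of the inactive X chromosome, had 5109 and 3740 normalized counts in control replicate 1 and knockout replicate 3 and 2.674 to 90.58 in the other libraries, so each group held 1 library from a female mouse. In bulk RNA, fewer cells of a type and less RNA per cell cannot be told apart.

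Of the 10 genes, 1 rose (Bap1) and 1 fell (Hat1) in the libraries labelled knockout at a limma adjusted p of 0.05 over all genes tested. The same test called 26.8% of all genes, 11.8% higher and 15.0% lower, so the share among these 10 genes, 20%, was not above the background. After GC content and transcript length were regressed out, the calls over all genes turned from 56.1% lower to 42.0% lower. The control and knockout-labelled libraries did not overlap for 3 of the 10 (Bap1, Asxl2 and Hat1), where 42.9% of all genes did not overlap. The median log2 fold change was -0.06 over the 10 genes and 0.01 over all genes tested.

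**Figure D1:**
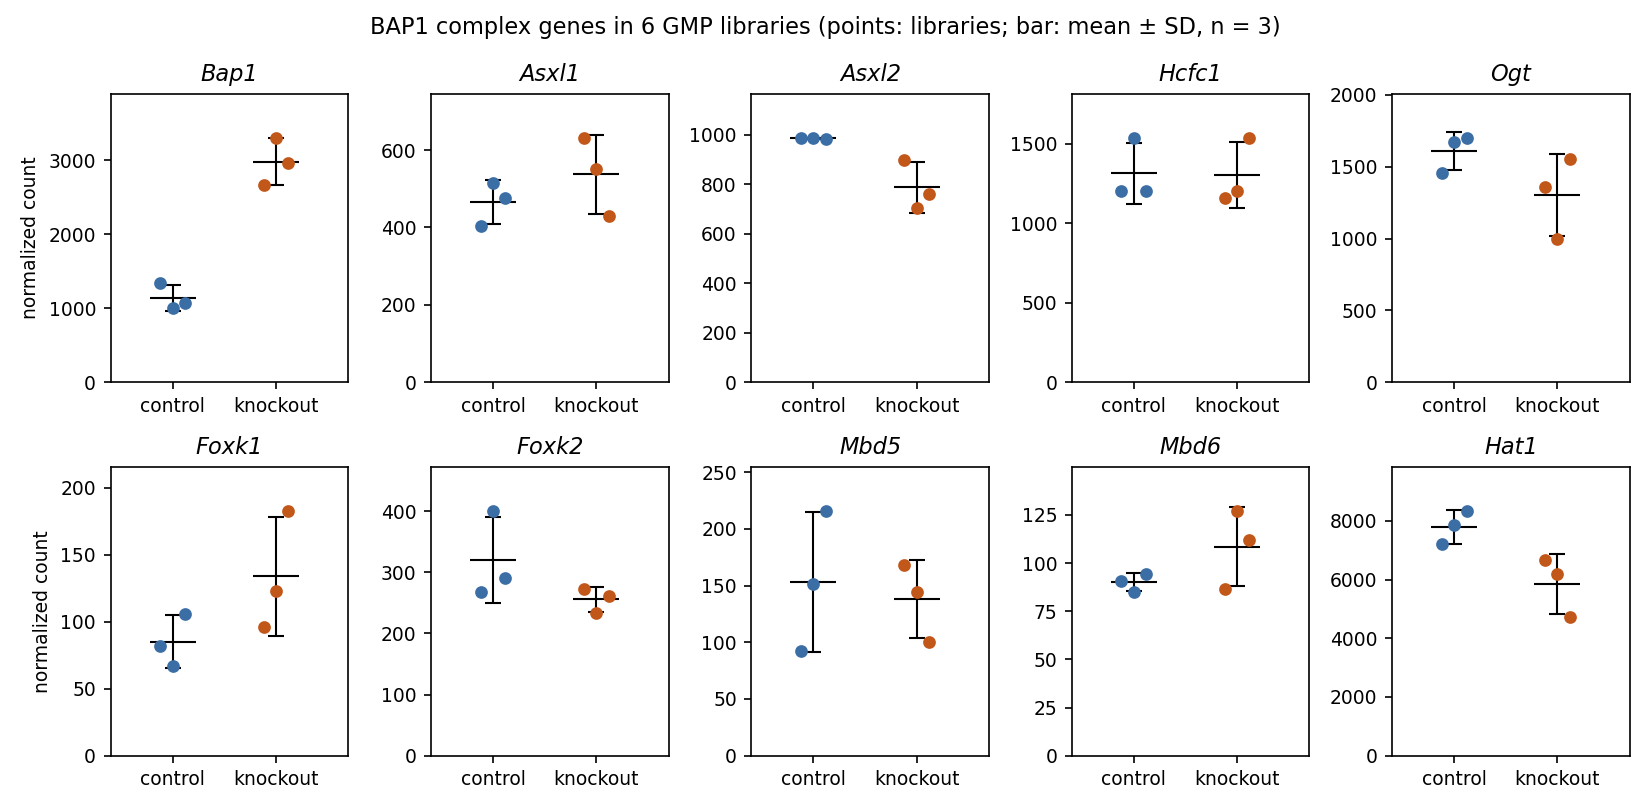
Normalized counts (y axis, linear from 0) of the 10 genes in 3 control and 3 knockout-labelled libraries (x axis), with points for libraries and bars for the mean ± SD. Bap1 lay between 998.5 and 1343 in control and between 2671 and 3309 in knockout-labelled libraries, while most partners overlapped between the groups.

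Bap1 (ENSMUSG00000021901, chromosome 14) stood at 1343, 998.5 and 1076 normalized counts in control replicates 1 to 3 and at 2671, 3309 and 2968 in the libraries labelled knockout. Every library labelled knockout was above every control library. The log2 fold change was 1.39 (SE 0.14, 95% interval 1.08 to 1.71, limma adjusted p = 6.07e-05), a 2.63-fold higher level in the libraries whose labels name the deletion. This goes against the label, and directions below are therefore those of "the libraries labelled knockout". The count covers the whole gene, including any exons outside the deleted part, and therefore does not measure the deletion. Among the 1695 genes called higher, 443 (26.1%) had a larger log2 fold change than Bap1 and 44 had a smaller p.

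The genes around Bap1 on chromosome 14 were examined next. Phf7, a PHD-finger gene known mainly from the testis, is its nearest neighbour on one side and is transcribed away from it. Phf7 had 452.2, 556.1 and 628.4 normalized counts in control libraries and 1058, 821.5 and 910.1 in the libraries labelled knockout, again without overlap. It rose 1.71-fold (log2 fold change 0.77, SE 0.17, limma adjusted p = 0.00612), a call kept in all 16 alternative fits. On the other side lies Dnah1, an axonemal dynein gene, with 46.2, 13.38 and 16.94 normalized counts in control libraries and 45.87, 73.92 and 77.65 in the libraries labelled knockout. Its groups overlapped, since control replicate 1 was above knockout replicate 1. The log2 fold change of Dnah1 was 1.5 (SE 0.5, limma adjusted p = 0.0456), a call that ended without control replicate 2 (0.152) or 3 (0.13), without knockout replicate 2 (0.128) or 3 (0.117), and in edgeR (0.0791) and DESeq2 (0.0531).

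Capn7, a calpain gene, and Sh3bp5, an SH3-binding protein gene, follow beyond Dnah1, and neither passed the test. Capn7 went from 809.2 ± 71.99 to 938.8 ± 23.2 normalized counts (SD, n = 3; log2 fold change 0.22, limma adjusted p = 0.262, but 0.52 and 0.00821 after the GC and length correction). Sh3bp5 went from 208.6 ± 16.16 to 256.8 ± 25.82 (log2 fold change 0.30, limma adjusted p = 0.3). Beyond Phf7, Sema3g (a semaphorin) and Tnnc1 (cardiac troponin C) had 0 reads in all 6 libraries, which allows up to 3 reads per library. Nisch, the imidazoline receptor gene beyond them, was chosen after its values were seen: it had 2032, 2288 and 1792 normalized counts in control libraries and 4269, 3482 and 3700 in those labelled knockout. Nisch rose by 0.91 in log2 units (SE 0.13, limma adjusted p = 0.000554), also in all 16 alternative fits. Of the 6 genes nearest to Bap1, 4 could be tested and 2 were called (Phf7 and Dnah1), both higher, where 11.8% of all genes were called higher. The Dnah1 call was kept in 7 of the 15 alternatives that tested it.

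**Figure D2:**
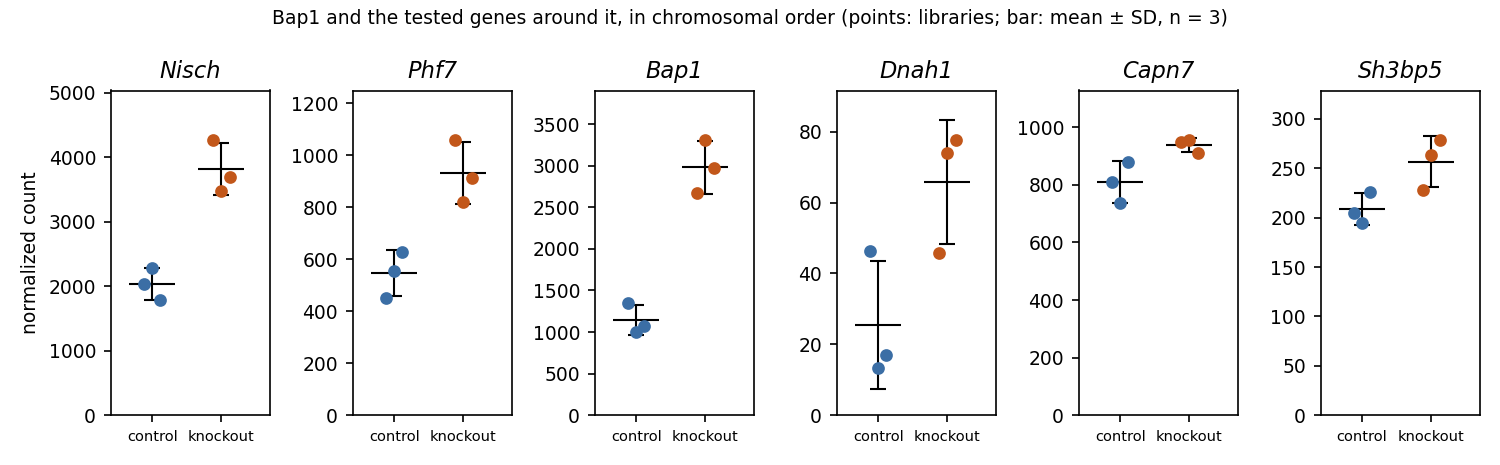
Normalized counts (y axis, linear from 0, one scale per gene) of Bap1 and the tested genes around it in chromosomal order, with points for libraries and bars for the mean ± SD (n = 3 per group). Nisch, Phf7 and Bap1 were higher in every knockout-labelled library than in any control library, whereas Dnah1 overlapped.

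Bap1 and Phf7 start 174 bases apart on opposite strands in RefSeq, so 173 bases of their 250-base upstream windows are shared. The stretch that lies outside both genes, in RefSeq as well as in GENCODE M21, is shown because the 2 genes that flank it both rose. It is chr14:31251318-31251449 of GRCm38.p6, plus strand (the strand of Bap1), with CpG dinucleotides in capitals.
Bap1-Phf7: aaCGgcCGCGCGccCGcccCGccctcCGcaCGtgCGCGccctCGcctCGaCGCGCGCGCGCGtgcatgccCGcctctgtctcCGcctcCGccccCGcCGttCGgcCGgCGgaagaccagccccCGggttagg
It holds 27 CpGs in 132 bases. The whole window of 250 bases upstream of Bap1 holds 43 CpGs and is 74.4% G or C, against medians of 6 CpGs and 52.4% over the 32851 RefSeq windows of that length. RefSeq windows were matched for 9 of the 10 genes (12 windows). They were searched on both strands for exact matches to E2F (TTTGGCGC, TTTCGCGC), CREB (TGACGTCA and the shorter TGACGT, which the full site contains), forkhead (GTAAACA), YY1 (AANATGGC) and ETS (CCGGAAGT) motifs. Bap1 had 1 match, the shorter CREB motif 24 bases upstream of its RefSeq start, which 6.47% of all windows hold. The site lies inside Bap1 in GENCODE M21, so it is outside the stretch printed above. It is also the match 155 bases upstream of the RefSeq start of Phf7. Hcfc1 and Asxl1 each had 1 YY1 match (3.91% of all windows), and Hat1 and Asxl2 each had 1 ETS match (2.88%). The other motifs had no match in these windows, and they occur in 0.256% to 3.17% of all windows. A match describes letters and shows no binding.

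The ASXL partners had differences of opposite sign, and neither passed the test. Asxl1 (chromosome 2) had 403.4, 516.0 and 476.9 normalized counts in control libraries and 632.6, 551.8 and 429.4 in those labelled knockout. Its groups overlapped through knockout replicate 3 (log2 fold change 0.20, 95% interval -0.21 to 0.61, limma adjusted p = 0.469). Asxl2 (chromosome 12) had 984.5, 988.0 and 983.2 in control libraries and 899.2, 701.7 and 759.4 in those labelled knockout. The control libraries nearly coincided, with an SD of 2.493, and every library labelled knockout lay below them. The difference was -0.33 on the log2 scale (SE 0.14, 95% interval -0.64 to -0.02, limma adjusted p = 0.106), and without knockout replicate 1 it passed (-0.43, 0.0343). After the GC and length correction it was at -0.08 (0.636). Asxl3, the third ASXL gene, had 0 reads in all 6 libraries, which allows up to 3 reads per library. A gene on the opposite strand, 1110002L01Rik, overlaps Asxl2 and stood at 93.37 and 50.32 mean normalized counts (limma adjusted p = 0.141). Another, 2500004C02Rik, overlaps Asxl1 on the opposite strand and stood at 103.6 and 107.1 (limma adjusted p = 0.966).

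The ratio of Asxl1 to Asxl2 within a library does not depend on its size factor. Per kilobase of exon, the log2 ratio was -0.19, 0.16 and 0.05 in control libraries and 0.59, 0.75 and 0.28 in those labelled knockout. By this measure the 2 transcripts were near parity in control libraries. Asxl1 led in every library labelled knockout, by 0.54 ± 0.24 on the log2 scale (SD, n = 3). The difference of 0.53 gave an exact 2-sided permutation p of 0.1, the smallest that 3 against 3 libraries allow (0.3 adjusted over the 3 paralog pairs). Parity and lead rest on lengths of 7.44 kb (Asxl1) and 15.94 kb (Asxl2), taken over all annotated exons of each gene. In normalized counts Asxl2 was the higher of the 2 in every library, at 985.2 against 465.4 on average in control libraries. After the GC and length correction the log2 fold changes were 0.26 (Asxl1) and -0.08 (Asxl2), which lie closer together than without it.

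HCF1 and OGT, both encoded on the X chromosome, did not pass. Hcfc1 had 1202, 1534 and 1204 normalized counts in control libraries and 1160, 1205 and 1538 in those labelled knockout, so that each group held 1 high library. The log2 fold change of Hcfc1 was -0.02 (SE 0.16), with a 95% interval of -0.36 to 0.32, or 0.781-fold to 1.25-fold (limma adjusted p = 0.954). Ogt had 1458, 1669 and 1703 in control libraries and 1359, 996.4 and 1555 in those labelled knockout, where replicate 3 reached into the control range. For Ogt the log2 fold change was -0.33 (SE 0.17, 95% interval -0.69 to 0.04, limma adjusted p = 0.17), and -0.04 after the GC and length correction (0.853). The libraries with high Xist stood at opposite ends for Ogt: control replicate 1 was the lowest control, and knockout replicate 3 the highest of its group. For Hcfc1, knockout replicate 3 was also the highest of its group, while control replicates 1 and 3 were nearly level (1202 and 1204).

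The forkhead partners FOXK1 and FOXK2 also differed in sign, and neither was called. Foxk1 (chromosome 5) had 81.74, 66.88 and 106.1 normalized counts in control libraries and 96.00, 122.9 and 182.7 in those labelled knockout, with the highest value in knockout replicate 3. A log2 fold change of 0.63 was the second largest among the 10 genes but uncertain (SE 0.32, 95% interval -0.07 to 1.32, limma adjusted p = 0.17). Foxk2 (chromosome 11) had 268.3, 400.4 and 291.5 in control libraries and 273.1, 233.2 and 261.5 in those labelled knockout, with control replicate 2 above the rest (log2 fold change -0.30, SE 0.21, limma adjusted p = 0.311). The log2 ratio of Foxk1 to Foxk2 per kilobase was -2.45 ± 0.59 in control libraries and -1.51 ± 0.5 in those labelled knockout (SD, n = 3; exact 2-sided permutation p = 0.2, 0.3 adjusted over 3 pairs). Foxk2 was the more abundant transcript of the pair in all 6 libraries.

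MBD5 and MBD6 carry a methyl-CpG-binding-like domain that joins them to the complex. Mbd5 (chromosome 2) spread widely within groups, with 92.40, 151.0 and 215.7 normalized counts in control libraries and 168.5, 144.7 and 100.5 in those labelled knockout. Its log2 fold change was -0.10 (SE 0.33, 95% interval -0.83 to 0.63, limma adjusted p = 0.857). Orc4, a replication gene on the opposite strand at 1572 and 1485 mean normalized counts in the 2 groups, overlaps the Mbd5 locus, as does the pseudogene Gm13509 at 4932 and 5960, so reads of Mbd5 are uncertain. Mbd6 (chromosome 10) had 90.63, 85.04 and 94.48 in control libraries and 86.40, 127.0 and 111.9 in those labelled knockout (log2 fold change 0.25, SE 0.28, limma adjusted p = 0.543). The log2 ratio of Mbd5 to Mbd6 per kilobase was -1.46 ± 0.59 and -1.81 ± 0.57 (SD, n = 3; exact 2-sided permutation p = 0.5).

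Hat1 (ENSMUSG00000027018, chromosome 2) was the most abundant of the 10 transcripts. It had 7194, 7868 and 8334 normalized counts in control libraries and 6649, 6173 and 4714 in those labelled knockout, without overlap. Hat1 fell by 0.43 on the log2 scale (SE 0.14, 95% interval -0.73 to -0.13, limma adjusted p = 0.0392), and knockout replicate 3 was the lowest library. Leaving out control replicate 1 (adjusted p = 0.062), 2 (0.12) or 3 (0.151) ended the call, as did the fits without knockout replicate 2 (0.0542) or 3 (0.0767). The same held after the GC and length correction, where the log2 fold change was -0.18 (limma adjusted p = 0.223).

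**Figure D3:**
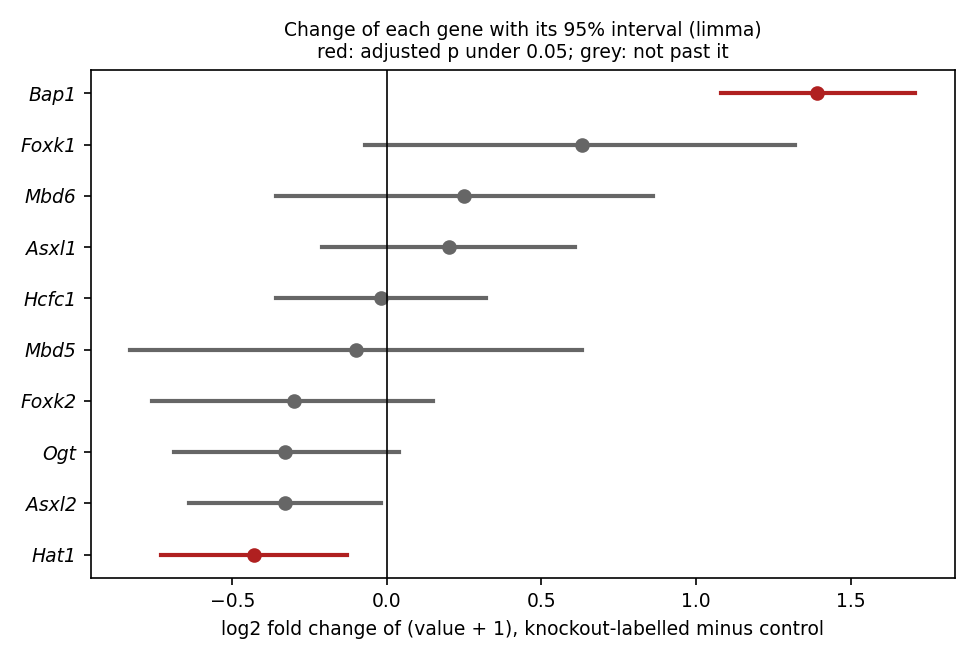
Log2 fold change of each gene (x axis, knockout-labelled minus control, on the log2 of value + 1) with its 95% interval from limma, n = 3 per group. Bap1 lay at 1.39, apart from the rest, and Hat1 at -0.43, while the intervals of the other genes in grey ended near 0 or crossed it.

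Levels were compared between genes per kilobase of exon, using GENCODE M21 lengths. In control libraries Hat1 led with 2700 ± 199 normalized counts per kilobase (SD, n = 3), followed by Bap1 (243 ± 38.7), Ogt (200 ± 16.5) and Hcfc1 (157 ± 22.8). Bap1 was above Ogt and Hcfc1 above Asxl1 without overlap, while Ogt and Hcfc1 overlapped. Asxl1 (62.5 ± 7.68), Asxl2 (61.8 ± 0.156) and Foxk2 (60.9 ± 13.4) did not separate from each other. Mbd6 (20.2 ± 1.07) lay below these 3 without overlap, and Foxk1 (11.2 ± 2.61) and Mbd5 (7.79 ± 3.14) were the lowest and overlapped each other. The order by mean was the same in the libraries labelled knockout, where Bap1 reached 637 ± 68.2 per kilobase and Asxl1 (72.3 ± 13.7) no longer overlapped Asxl2 (49.4 ± 6.37).

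**Figure D4:**
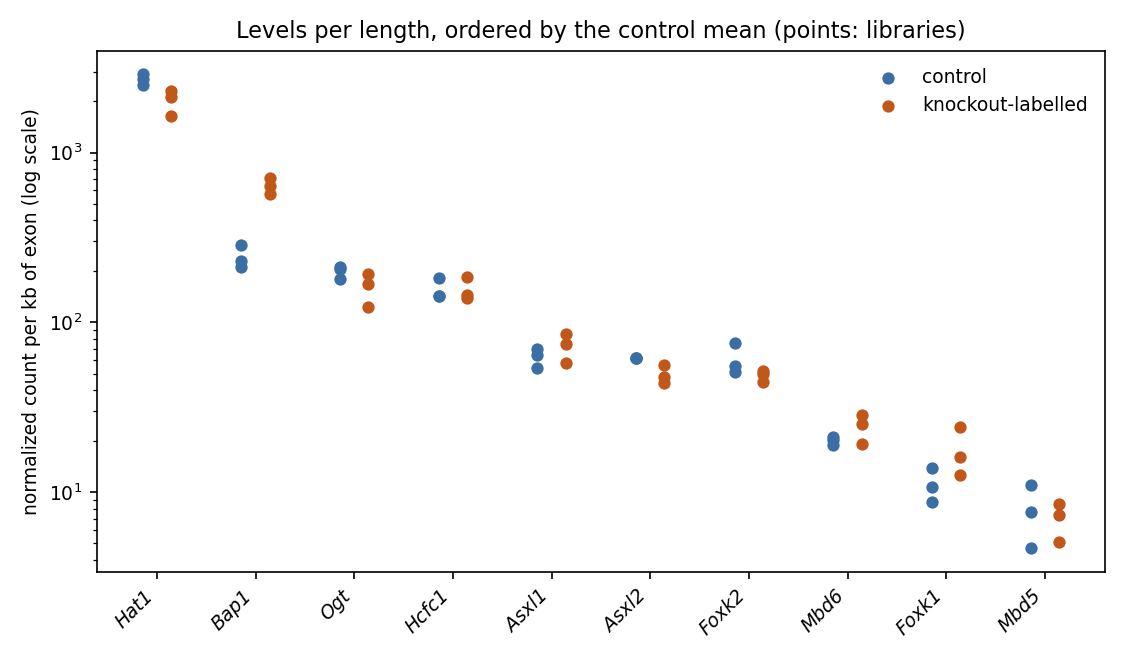
Normalized counts per kilobase of exon (y axis, log scale) for the 10 genes ordered by their control mean (x axis), with 3 control and 3 knockout-labelled libraries as points. Bap1 rose from 243 to 637 per kilobase on average, and the order of the means was kept.

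The ratio of Bap1 to its partners followed its own level. Per kilobase, Bap1 stood at 2.47, 1.62 and 1.83 times the sum of Asxl1 and Asxl2 in control libraries and at 4.03, 5.98 and 6.02 times that sum in the libraries labelled knockout. Against Ogt the ratio was 1.58, 1.03 and 1.09 in control libraries and 3.38, 5.71 and 3.28 in those labelled knockout. Against Hcfc1 it was 2.0, 1.16 and 1.6 and then 4.11, 4.9 and 3.45. The groups did not overlap for Bap1 against Asxl1, Asxl2, Hcfc1, Ogt, Foxk2, Mbd5, Mbd6 and Hat1, and overlapped narrowly against Foxk1 (16.4 to 26.6 in control, 26.3 to 45.1 in knockout-labelled libraries). These ratios share the Bap1 values and are not separate evidence of its change.

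Related genes came from 8 lists. Of their 80 tested genes 9 rose and 14 fell, 28.8% in all, near the 26.8% of all genes tested, so the counts by list below describe the genes and set no list apart. Among 18 tested genes of other BAP1 and HCF1 partners, 1 rose and 3 fell (median log2 fold change -0.01, against 0.01 over all genes tested). The genes that fell encode proteins known to bind HCF1. The list was made of BAP1 and HCF1 partners, so this trait does not set them apart. Thap11, a zinc-finger factor of stem cell growth, had 1032, 1211 and 1229 normalized counts in control libraries and 463.0, 735.1 and 524.1 in those labelled knockout, which was lower in every library. The log2 difference of Thap11 was -1.03 (SE 0.18, limma adjusted p = 0.00174). Creb3, a membrane-bound leucine-zipper factor, went from 990.8 ± 68.71 to 525.5 ± 92.18 (log2 fold change -0.93, SE 0.16, limma adjusted p = 0.00167). Both calls were kept in all 16 alternative fits. Kmt2a, the histone methyltransferase MLL1, went from 726.2 ± 51.21 to 444.6 ± 84.84 (log2 fold change -0.72, limma adjusted p = 0.0103, but 0.0535 without control replicate 3). Sin3b, a corepressor scaffold, rose by 0.43 log2 units (limma adjusted p = 0.0184), a call that ended without control replicate 1 (0.0659) or 2 (0.0924) or knockout replicate 2 (0.051). Asxl3 and Ppargc1a were below the filter.

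Enzymes that write or erase H2A ubiquitin split in direction. Of 12 tested genes of the writing complexes, 1 rose and 1 fell (median -0.04). Rnf2, the catalytic RING1B subunit, went from 2258 ± 143.4 to 1454 ± 240.3 normalized counts (log2 fold change -0.65, limma adjusted p = 0.00579, but -0.28 and 0.0615 after the GC and length correction). Pcgf5, a subunit of variant complexes, was higher by 0.39 (0.0492), a call that ended without control replicate 1 (0.113), 2 (0.132) or 3 (0.143) or knockout replicate 1 (0.1) or 2 (0.0531). After the GC and length correction Pcgf5 was at 0.71 (0.000426). Of 10 other H2A and H2B deubiquitinases 1 rose and 4 fell (median -0.24). Usp46 had 387.4, 323.9 and 445.7 in control libraries and 898.2, 749.6 and 774.2 in those labelled knockout, without overlap, and its rise (log2 fold change 1.07, SE 0.17, limma adjusted p = 0.000949) was kept in all 16 alternative fits. Usp44 was read at 25.77, 19.11 and 17.83 in control libraries and at 0, 0 and 4.568 in those labelled knockout (limma adjusted p = 0.0138). It passed the expression filter only through the control libraries, with at most 29 reads in any library. Only 11 of the 16 alternatives tested Usp44, none of them with a control library left out, and these 11 kept the call. Brcc3, which cuts ubiquitin chains in the BRCA1-A complex, fell by 0.65 in log2 units (adjusted p = 0.00444 in limma, but 0.0872 after the GC and length correction).

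The remaining calls among the deubiquitinases were unstable. Usp12 was lower by 1.34 on the log2 scale, from 82.78 ± 30.24 to 33.36 ± 17.64 (limma adjusted p = 0.0415), and leaving out any library except knockout replicate 3 ended the call (0.0643 to 0.175). Usp16, named after its values were seen as the remaining member that fell, went from 1532 ± 87.78 to 1140 ± 185.7 (limma adjusted p = 0.0424), and its call ended without any library except knockout replicate 1 (0.0866 to 0.151). After the GC and length correction its log2 fold change was -0.05 (0.753). The UCH family, the relatives of BAP1 in catalytic fold, gave no call among 3 tested genes (median -0.18). Uchl5, the proteasome- and INO80-bound member that DEUBAD-type proteins also regulate, was at 9770 ± 660.2 and 11460 ± 2282 (limma adjusted p = 0.291).

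Of 7 tested genes of O-GlcNAc cycling and of UDP-GlcNAc synthesis, which supplies OGT with its substrate, 0 rose and 3 fell (median -0.46). The 3 that fell are steps of the synthesis. Pgm3, the phosphoacetylglucosamine mutase, had 1358, 1531 and 1533 normalized counts in control libraries and 737.1, 865.2 and 890.7 in those labelled knockout, lower in every library. The difference of -0.83 in log2 units (SE 0.14, limma adjusted p = 0.00114) was called in all 16 alternative fits. Uap1, the pyrophosphorylase of the final step, was lower by 0.60 in log2 units (limma adjusted p = 0.0243), a call that ended without control replicate 2 (0.0997) or 3 (0.0933), without knockout replicate 3 (0.0584) and after the GC and length correction (0.0798). Gfpt1, the rate-limiting entry enzyme, was lower by 0.67 (0.033), a call that ended without control replicate 1 (0.0868), 2 (0.128) or 3 (0.0666), without knockout replicate 2 (0.0936) and after the GC and length correction (0.12). Mgea5 (Oga), the hydrolase that removes O-GlcNAc, stood at 597.5 ± 74.89 and 592.6 ± 64.19 (a log2 difference of -0.01 with an SE of 0.16, limma adjusted p = 0.973).

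Of 10 tested HAT1 partners and histone H3-H4 chaperones, 1 rose and 0 fell (median 0.03). Asf1a, an H3-H4 chaperone, had 1221, 1852 and 2369 normalized counts in control libraries and 3711, 2995 and 2618 in those labelled knockout (log2 fold change 0.81, limma adjusted p = 0.0161). That call ended without control replicate 1 (0.052) or knockout replicate 1 (0.0556). Rbbp7, the histone-binding subunit that activates HAT1, stood at 13060 ± 343.2 and 13410 ± 582.5 (a log2 difference of 0.04 with an SE of 0.1, limma adjusted p = 0.818).

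Of 9 tested genes with a methyl-CpG-binding-type domain other than Mbd5 and Mbd6, 3 rose and 0 fell (median 0.28). Mbd3, a subunit of the NuRD corepressor, went from 1151 ± 244.9 to 1992 ± 152.8 (log2 fold change 0.81, limma adjusted p = 0.00369, but 0.39 and 0.0699 after the GC and length correction). Baz2b, a bromodomain protein, rose by 0.52 in log2 units (limma adjusted p = 0.00681, but 0.0539 without the libraries with high Xist). Mbd1 was higher by 0.51 (0.0337), a call that ended without control replicate 1 (0.0789), 2 (0.101) or 3 (0.1) or knockout replicate 3 (0.0913). Of 11 tested forkhead genes outside the FOXK pair, 2 rose and 3 fell (median -0.15). Foxp1, a regulator of lymphoid and myeloid development, rose by 0.52 (limma adjusted p = 0.00584), and Foxj2 went from 49.2 ± 10.48 to 3.166 ± 3.57 normalized counts (limma adjusted p = 0.00211). The call of Foxp1 was kept in all 16 alternative fits and that of Foxj2 in the 15 that tested it. Foxj2 passed the expression filter only through the control libraries. Foxn2 was lower by 0.57 on the log2 scale (0.0263), but at -0.26 (0.183) after the GC and length correction. Its call also ended without control replicate 2 (0.108) or 3 (0.0926) or knockout replicate 2 (0.0586) or 3 (0.0689). Foxp3 was lower by 0.68 (0.0297), a call that ended without the same libraries (0.134, 0.0927, 0.0571 and 0.0847). The counts of 0 in these lists (UCH genes in either direction, O-GlcNAc genes that rose, HAT1 partners and MBD-domain genes that fell) were also 0 at an unadjusted p under 0.05 in limma, and 0 in edgeR and in DESeq2.

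**Figure D5:**
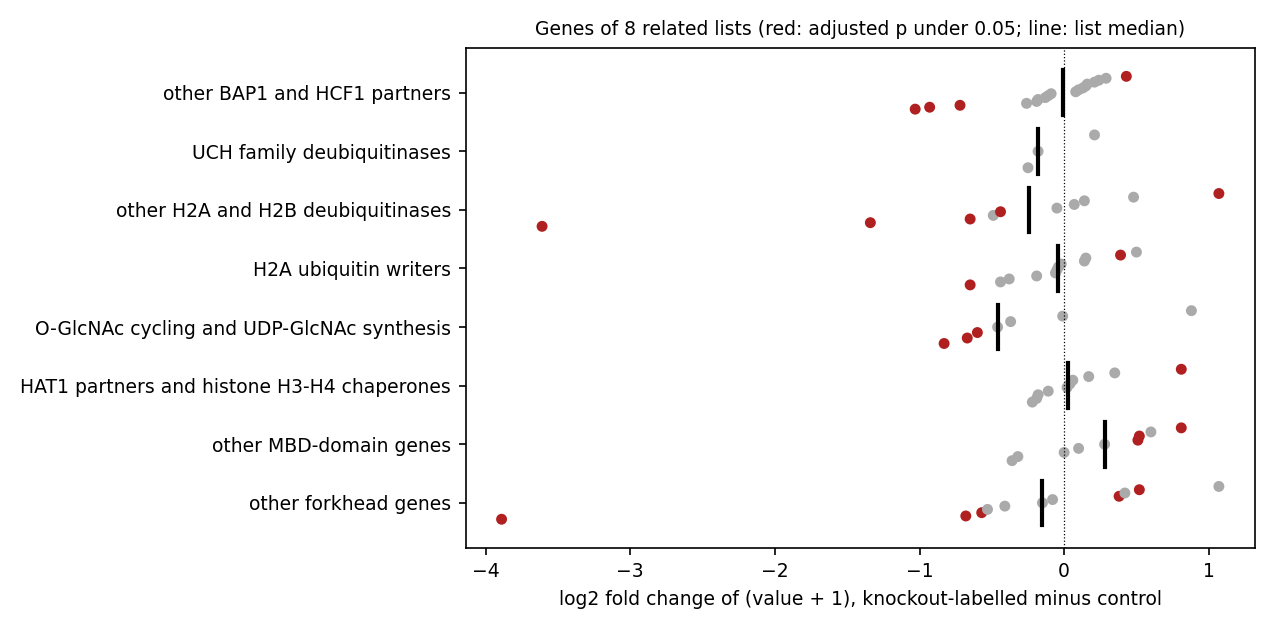
Log2 fold change (x axis, knockout-labelled minus control, on the log2 of value + 1) of each tested gene in 8 related lists (y axis), in red where the limma adjusted p was under 0.05, with the list median as a black line. Medians ran from -0.46 for O-GlcNAc cycling and UDP-GlcNAc synthesis to 0.28 for the other MBD-domain genes.

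The genes whose profile over the 6 libraries was most like that of Bap1, by Pearson's r of log2 values, were Krtcap3 (r = 0.9985), Ctsg (0.998), Gm12254 (0.9979), Egln3 (0.9977) and Cdkn1a (0.9974). These points share the group difference, so the likeness is a description. Ctsg, the cathepsin G gene of primary granules, had 26560, 22340 and 23240 normalized counts in control libraries and 36230, 42240 and 38540 in those labelled knockout. As for Bap1, control replicate 1 was the highest control and knockout replicate 2 the highest of its group. Krtcap3 rose from 91.92 ± 27.38 to 547.6 ± 110.3 normalized counts and the cell-cycle inhibitor gene Cdkn1a from 139.8 ± 23.89 to 322.0 ± 36.61 (SD, n = 3; limma adjusted p = 4.67e-05 and 0.00219).

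Markers of the sort gate and of other blood cells also differed between the groups. Of the gate genes, Cd34 went from 11500 ± 296.5 to 3963 ± 243.6 normalized counts (limma adjusted p = 5.04e-06) and Fcgr3 fell by 0.77 on the log2 scale (0.00198). Kit was higher by 0.47 (0.0214), a call that ended without control replicate 1 (0.0783) or 3 (0.0936) or knockout replicate 3 (0.054). Elane was higher by 0.69 (0.0263), a call that ended without control replicate 1 (0.09), 2 (0.0902) or 3 (0.123). After the GC and length correction Elane was at 0.42 (0.0633). For the counts of called markers that follow, 15.0% of all genes tested were called lower and 11.8% higher. Monocyte and macrophage markers fell in 8 of 8 tested genes, with summed normalized counts of 25820 to 27090 in control and 4927 to 7552 in knockout-labelled libraries. Dendritic cell markers fell in 5 of 7 (10710 to 19840 and 2389 to 4222), B lymphoid markers in 6 of 6 tested (2040 to 2438 and 1022 to 1318, with Pax5 and Vpreb3 at 0 reads in all libraries labelled knockout) and T and NK markers in 4 of 4 tested (507.4 to 816.5 and 86.42 to 151.9). Mast cell, basophil and eosinophil markers fell in 6 of 8 and rose in 1 (91830 to 97230 and 41780 to 55110). Of the dendritic cell markers not called, Flt3 went the other way, from 562.4 ± 37.32 to 871.2 ± 342.7 (limma adjusted p = 0.087). Itgax was lower, from 18.61 ± 8.27 to 4.68 ± 0.4794 (limma adjusted p = 0.0876). Some of the markers that fell, Vpreb3 among them, passed the expression filter only through the control libraries. Summed erythroid, megakaryocyte, mature neutrophil and stem cell markers overlapped between the groups. The part of these shifts in the changes of Bap1, Hat1 and the related genes was not tested. Ezh2, the PRC2 enzyme named in the title of the series, stood at 2752 ± 85.21 and 2611 ± 292.9 (limma adjusted p = 0.659).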

How the data were processed

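Per the labels' protocols, RNA of sorted GMPs went through SMARTer amplification for low input and Ion Torrent whole-transcriptome library preparation. Reads from PCR without molecular identifiers are not independent molecules, so the limit of 3 reads for a count of 0 covers counting error only. STAR, BWA 0.7.5a, Picard, DESeq2 and HTSeq are listed, per the submitters' processing notes, without roles, beside the builds NCBIM37 and mm9. The use of strand in counting was not given in the sources used here. The deposited signal per gene was a count divided by 1 size factor per library, since 100% of values above 0 were whole multiples of a step per library (tolerance 0.01 read). Rows naming no gene (5) were left out, and genes held 22.9 to 25.2% of listed reads. GENCODE M21 (GRCm38) gave symbols for 32897 of 37620 IDs, and lengths.

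The main model was limma 3.58.1 with its trend option (R 4.3.3) on log2(deposited value + 1), for genes whose mean value reached 10, with Benjamini-Hochberg adjustment over all of them, and checked on simulated counts. The simulation used the spread of the control libraries for both groups, so it did not cover the wider spread of those labelled knockout. Fold changes on this scale understate those of low genes. The 16 alternatives used edgeR 4.0.16 and DESeq2 1.42.0 on recovered reads, other pseudocounts and filters, each library left out, a replicate block, a GC and length correction, and the libraries with over 100 Xist reads left out. The genes and lists were chosen with earlier results of these data known. Named genes were all 10 members, up to 4 called genes per list by smallest adjusted p, the 3 genes on each side of Bap1, the 5 genes most like Bap1, and Xist, Ezh2, Cd34, Kit, Fcgr3, Mpo and Elane. Outside this rule, and chosen after their values were seen, Nisch, Usp16, Uchl5, Mgea5, Rbbp7, Irf8, Csf1r, Cebpa, Flt3, Itgax and genes that overlap a member are also named, as are listed genes with 0 reads. Of the listed markers, Hbb-b1 was not matched.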

Additional observations from a re-analysis of the deposited data

How the results depend on the processing

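Bap1 was called higher in all 16 alternatives, with a log2 fold change of 1.30 to 1.52. Asxl1, Ogt, Foxk1 and Foxk2 kept their direction without a call in all 16, but their sizes moved. With 1 library left out, Asxl1 ran from 0.07 (without knockout replicate 1) to 0.35 (without knockout replicate 3), Ogt from -0.46 (without knockout replicate 3) to -0.14 (without knockout replicate 2), Foxk1 from 0.38 (without knockout replicate 3) to 0.84 (without knockout replicate 1) and Foxk2 from -0.42 (without control replicate 1) to -0.13 (without control replicate 2). Without the libraries with high Xist, Ogt was at -0.53 (adjusted p = 0.0652) and Foxk1 at 0.36 (0.554). Asxl2 passed in 1, without knockout replicate 1 (leaving out 1 library gave -0.43 to -0.25), and was at -0.08 after the GC and length correction, as Ogt was at -0.04. Hcfc1 turned direction when 1 library was left out (-0.14 to 0.10), as did Mbd5 (-0.42 to 0.19), which was also at 0.11 after the GC and length correction, alone or with the replicate block, where Mbd6 was at -0.13. None of these reversals was past the threshold. Hat1 was called in 6 of 16 alternatives. Its log2 fold change was -0.43 without a filter beyond 1 read (adjusted p = 0.0578) and -0.43 with the replicate block (0.0616), -0.18 after the GC and length correction without or with the block (0.223 and 0.264), -0.34 without the libraries with high Xist (0.0924), and -0.53 to -0.28 with 1 library left out. The count of members called lower was 0 in these 5 settings and 0 to 2 with 1 library left out. Replicate numbers did not pair the samples (same-number correlations of -0.10, 0.04 and -0.06), and the replicate block gave 1550 genes higher and 2014 lower. Ezh2 ran from -0.16 to 0.00 with 1 library left out and turned to 0.21 after the GC and length correction with or without the block. Genes called higher over the whole table numbered 1695, then 2631 after the GC and length correction, 1106 without the libraries with high Xist, and 1058 (without control replicate 2) to 1796 with 1 library left out. Genes called lower numbered 2163, and 1413 to 2354 with 1 library left out. Genes called in the 8 related lists numbered 23, then 15 without the libraries with high Xist and 12 to 23 with 1 library left out. The causes were not tested. Foxk1, Mbd5 and Mbd6, at 70 to 242 reads per library, had the widest intervals.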
